A study of Mus musculus with 18 samples.

Results

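The casein kinase family was followed here in round spermatids (RS) of mice that differ in GRTH, the testicular RNA helicase encoded by Ddx25. Its 9 genes were taken by name from the 54232 genes of the deposited table: the 6 casein kinase 1 genes Csnk1a1, Csnk1d, Csnk1e, Csnk1g1, Csnk1g2 and Csnk1g3, and the 3 genes of casein kinase 2, Csnk2a1, Csnk2a2 and Csnk2b. All 9 passed the filter on low counts. RS were isolated from testes of WT mice, of KO mice, which lack GRTH, and of KI mice, in which a human GRTH gene with a missense mutation leaves the protein without its phosphorylated form. All mice were 75 to 85 days old, and no treatment was given in the labels. Each genotype had 6 libraries of total RNA made without polyA selection. Nothing in the labels says that the libraries came from separate animals, so p-values measure the spread between these libraries, which may be technical.

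Casein kinases are serine/threonine kinases. Those of the casein kinase 1 group act as single chains, and their gamma members are held at membranes by a lipid anchor. They phosphorylate Wnt co-receptors, beta-catenin, Dishevelled and the PER proteins of the circadian clock, and Csnk1g2 is also known to bind RIPK3 and to restrain necroptosis, a programmed form of cell death, in the testis. Casein kinase 2 is a tetramer of catalytic chains, from Csnk2a1 or Csnk2a2, and regulatory chains from Csnk2b. Loss of the catalytic chain Csnk2a2 is known to give round-headed sperm in mice.

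The libraries held between 18766971 and 26776555 counts on genes, and levels are given as CPM, the counts scaled to the size of the library. Ddx25 lay between 538 and 607 CPM in WT and between 47.7 and 90.9 CPM in KO. In 5 KI libraries it was at most 0.519 CPM, but KI 4 had 56.9 CPM, within the KO range, so the library labelled KI 4 went against its label. It was also the closest match of a KO library, since KO 2 and KI 4 had the lowest pair index of all pairs, 1.59. The pair index is the squared difference of the counts of 2 libraries over that expected from counting alone. In addition, 6 pairs of libraries of the same genotype had an index under 4, which leaves 12 units when each pair is summed. KO 2 and KI 4 differ in label and were not summed, so these units still count both. The gene tests were therefore repeated without the library labelled KI 4 and with close libraries summed. For genes that are not members, these repeats were added after seeing the data. The 7 markers of RS were all detected, at a summed level of 694 to 1139 CPM in WT, 496 to 1134 CPM in KO and 541 to 779 CPM in KI. None of them was called in KO, and 3 were lower in KI for a change of any amount, also without the library labelled KI 4, but 0 with close libraries summed. Of all genes tested, 15.4% were lower in KI for a change of any amount.

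Of the 9 casein kinase mRNAs, Csnk1g2 had the largest difference between genotypes. It fell 4.47-fold in KO and 5.37-fold in KI, while its closest relatives Csnk1g1 and Csnk1g3 were not called in either genotype. Csnk1d, the delta form, was lower by less than 1 log2 unit in both, and Csnk2a1, a catalytic chain of casein kinase 2, was higher by less than 1 log2 unit in both. The other 6 mRNAs were not called.

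Csnk1g2 lies on chromosome 10 of GRCm38 (80622838 to 80640749, plus strand), with 4835 bases of exon. In WT its lowest, median and highest levels were 539, 706 and 779 CPM. In KO they were 63.0, 159 and 224 CPM, and in KI 98.8, 128 and 147 CPM. Every WT library lay above every KO and KI library, and the KI values fell inside the KO range. The KO libraries were the more spread, with a coefficient of variation of 37.8% against 13.7% in WT and 15.9% in KI, and KO 3 was the lowest of them.

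The log2 fold change of Csnk1g2 was -2.16 in KO (SE 0.22, 95% interval -2.61 to -1.71) and -2.42 in KI (SE 0.22, 95% interval -2.88 to -1.97). Both were past 1 log2 unit, with adjusted p = 0.001206 in KO and 9.965e-05 in KI (edgeR glmTreat). Without the library labelled KI 4 the fold change in KI was -2.39 (adjusted p = 0.000432). With close libraries summed the changes were -2.23 in KO (adjusted p = 0.0296) and -2.39 in KI (adjusted p = 0.0188), so the calls did not need the close pairs to count as separate samples. KI and KO differed by -0.26 log2 units, with a 95% interval of -0.70 to 0.17 and adjusted p = 0.9615. In the bulk RNA of a cell preparation, fewer cells of a type and less RNA per cell cannot be told apart.

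**Figure D1:**
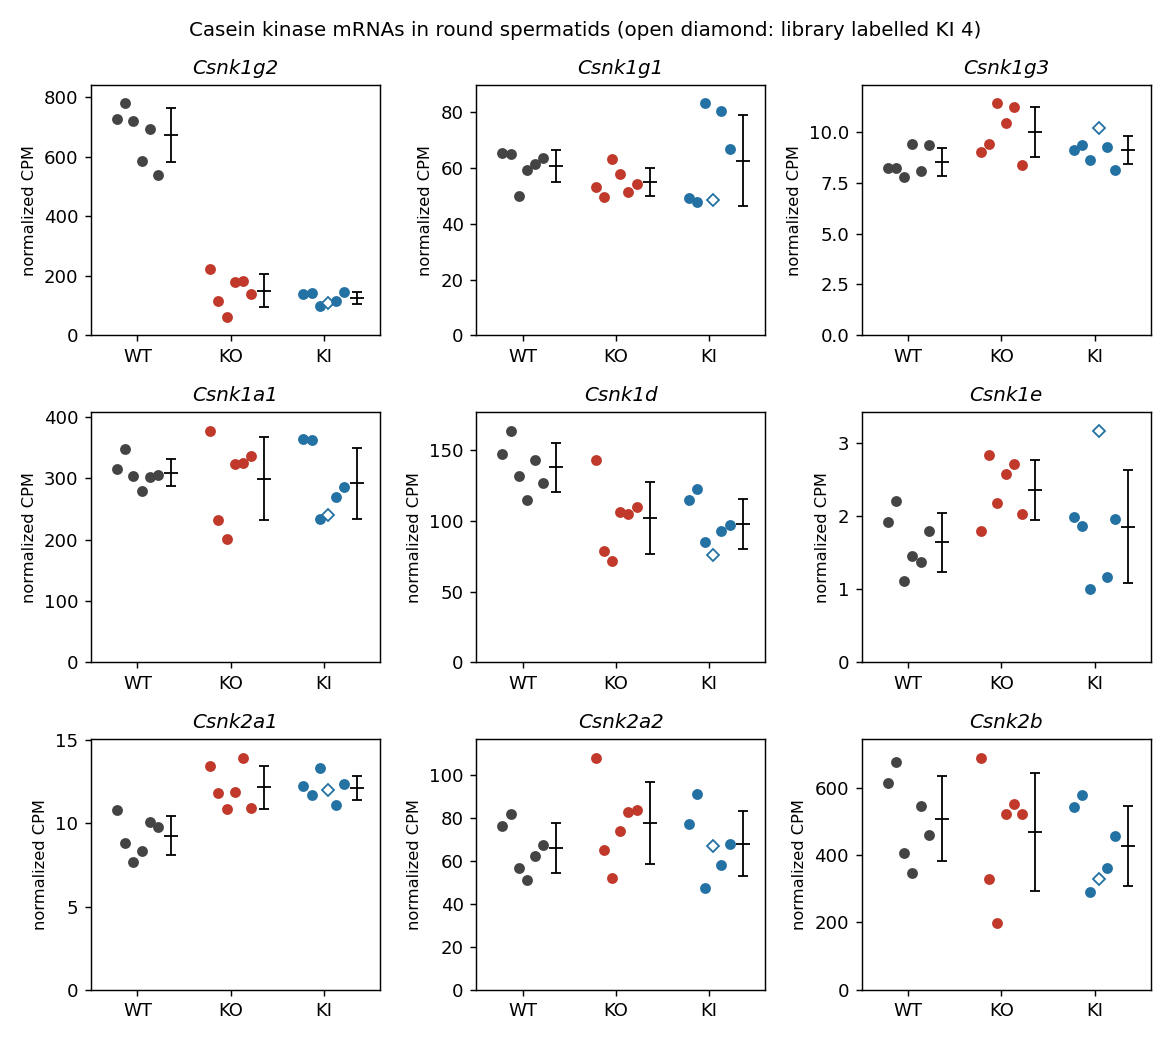
Level of each casein kinase mRNA in every library, in normalized CPM on linear axes that start at 0, by genotype. Each point is 1 library, the open diamond is the library labelled KI 4, and the black bar is the mean ± SD of 6 libraries. Csnk1g2 lies at 539 to 779 CPM in WT and at or below 224 CPM in KO and KI, while for the other genes except Csnk2a1 the values of the genotypes overlap.

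Set beside the whole table, a fall past 1 log2 unit was rare, and smaller changes were common. Past 1 log2 unit, 1 of the 9 members was lower in KO and 1 in KI, where 1.13% and 1.43% of the 21058 genes tested were lower. For a change of any amount, 2 members were lower and 1 higher in KO, beside 13.5% of all genes lower and 16.4% higher. In KI 2 members were lower and 1 higher too, beside 15.4% of all genes lower and 16.1% higher. The ranges of the libraries did not overlap for 2 members in KO and 2 in KI, in both cases Csnk1g2 and Csnk2a1, beside 13.1% and 13.9% of all genes. Between KI and KO no member was called, where edgeR called 0.0997% of all genes in either direction, and 0 members had an unadjusted p under 0.05. DESeq2 also called 0 members there, with 79 of 21058 genes called. Without the library labelled KI 4, edgeR called 111 of 21257 genes between KI and KO, and again no member. The median log2 fold change of the 9 members was -0.05 in KO and 0.04 in KI, and that of all genes was 0.03 and 0.05. Without the library labelled KI 4 the same 3 members were called in KI, and the other 6 lay between -0.19 (Csnk2b) and 0.11 (Csnk1g1) log2 units.

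The 2 other gamma genes, whose products share the membrane anchor of Csnk1g2, had levels that overlapped between genotypes. Csnk1g1, on chromosome 9, ran from 50.04 to 65.3 CPM in WT (median 62.5), from 49.6 to 63.5 CPM in KO (median 53.6) and from 47.9 to 83.2 CPM in KI (median 58.2). Its log2 fold change was -0.15 in KO (95% interval -0.44 to 0.15) and 0.05 in KI (95% interval -0.25 to 0.34). The KI libraries were uneven, since KI 3, KI 5 and KI 6 were at or above the highest WT level and the other 3 were below the lowest. KI 3 with KI 5 and KI 1 with KI 2 are close pairs. Csnk1g3, on chromosome 18, was a low transcript at 7.81 to 9.41 CPM in WT (median 8.23), 8.40 to 11.4 CPM in KO (median 9.94) and 8.12 to 10.2 CPM in KI (median 9.18). Its log2 fold change was 0.23 in KO (95% interval -0.0035 to 0.46, adjusted p = 0.153) and 0.10 in KI (95% interval -0.14 to 0.33). Leaving out KO 6 took the KO value to 0.27 with adjusted p = 0.0955. A rise or fall of 1 log2 unit lay outside the intervals of both genes in both mutants.

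Csnk1d, which phosphorylates the PER clock proteins, lies on chromosome 11. It had 114, 137 and 164 CPM as its lowest, median and highest values in WT, 71.4, 105 and 143 CPM in KO and 75.8, 94.6 and 122 CPM in KI. The groups overlapped, with KO 1 at the level of the middle WT libraries and KO 3 the lowest. The log2 fold change was -0.43 in KO (SE 0.16, adjusted p = 0.0488) and -0.49 in KI (SE 0.16, adjusted p = 0.0227), and -0.43 in KI without the library labelled KI 4 (adjusted p = 0.0561). The KO call was lost without WT 2 (adjusted p = 0.114), without KO 2 (0.121) or without KO 3 (0.108). With close libraries summed the adjusted p was 0.219 in KO and 0.179 in KI, so that neither call remained.

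Csnk1a1, the alpha form that primes beta-catenin for degradation, and Csnk1e, the epsilon form that acts on PER proteins with Csnk1d, were not called. Csnk1a1 on chromosome 18 ran from 280 to 348 CPM in WT (median 305), from 201 to 377 CPM in KO (median 324) and from 233 to 363 CPM in KI (median 278). Its spread was larger in the mutants, with a coefficient of variation of 22.6% in KO and 19.8% in KI against 7.22% in WT. The log2 fold change was -0.05 in KO (95% interval -0.37 to 0.27) and -0.08 in KI (95% interval -0.40 to 0.24). Without KO 2 or KO 3 the KO value turned to 0.02 or 0.04.

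Csnk1e, on chromosome 15, was the lowest member with 21 to 75 counts in a library. It had 1.12 to 2.21 CPM in WT (median 1.62), 1.80 to 2.84 CPM in KO (median 2.38) and 1.004 to 3.18 CPM in KI (median 1.92), and the highest value of all was that of the library labelled KI 4. The log2 fold change in KO was 0.52 (SE 0.24, adjusted p = 0.129) and fell on either side of the threshold with the libraries fitted. It was called without WT 2 (adjusted p = 0.0911), KO 1 (0.0969), KI 3 (0.0947) or KI 4 (0.0795) and with only WT and KO in the model (0.0510). In KI it was 0.18 (95% interval -0.33 to 0.68), and without the library labelled KI 4 it was -0.04.

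Csnk2a1 on chromosome 2, which encodes the alpha catalytic chain of casein kinase 2, was higher in both mutants. Its lowest, median and highest levels were 7.65, 9.32 and 10.8 CPM in WT, 10.9, 11.9 and 13.9 CPM in KO and 11.1, 12.2 and 13.3 CPM in KI. The lowest KO value, 10.88 CPM, was just above the highest WT value, 10.79 CPM, so the groups were separate but almost touched. The log2 fold change was 0.39 in KO (SE 0.11, adjusted p = 0.0123) and 0.39 in KI (SE 0.11, adjusted p = 0.0119), and 0.39 in KI without the library labelled KI 4 (adjusted p = 0.0179). With close libraries summed it was 0.38 in KO (adjusted p = 0.128) and 0.42 in KI (adjusted p = 0.107), past the threshold in neither. Of the 50-base stretches in its transcripts, 32.5% also occurred in transcripts of other genes, above all of Gm10031, which had 20 to 115 counts in a library. Since reads that fit both were not counted uniquely, the level of Csnk2a1 is uncertain. The named pseudogenes Csnk2a1-ps and Csnk2a1-ps1 had at most 1 count and 0 counts.

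The other catalytic chain, Csnk2a2 on chromosome 8, ran from 51.2 to 81.9 CPM in WT (median 64.9), from 51.9 to 108 CPM in KO (median 78.4) and from 47.3 to 91.4 CPM in KI (median 67.4). Its log2 fold change was 0.23 in KO (95% interval -0.12 to 0.59) and 0.04 in KI (95% interval -0.31 to 0.40). The regulatory chain Csnk2b on chromosome 17 ran from 345 to 676 CPM in WT (median 504), from 199 to 690 CPM in KO (median 524) and from 291 to 578 CPM in KI (median 410). It varied within every genotype, and its log2 fold change was -0.11 in KO (95% interval -0.62 to 0.39) and -0.25 in KI (95% interval -0.76 to 0.25). The intervals of Csnk2b and Csnk1e were the widest of the family. KO 3 was the lowest KO library for Csnk1g2, Csnk1a1, Csnk1d, Csnk2a1, Csnk2a2 and Csnk2b.

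**Figure D2:**
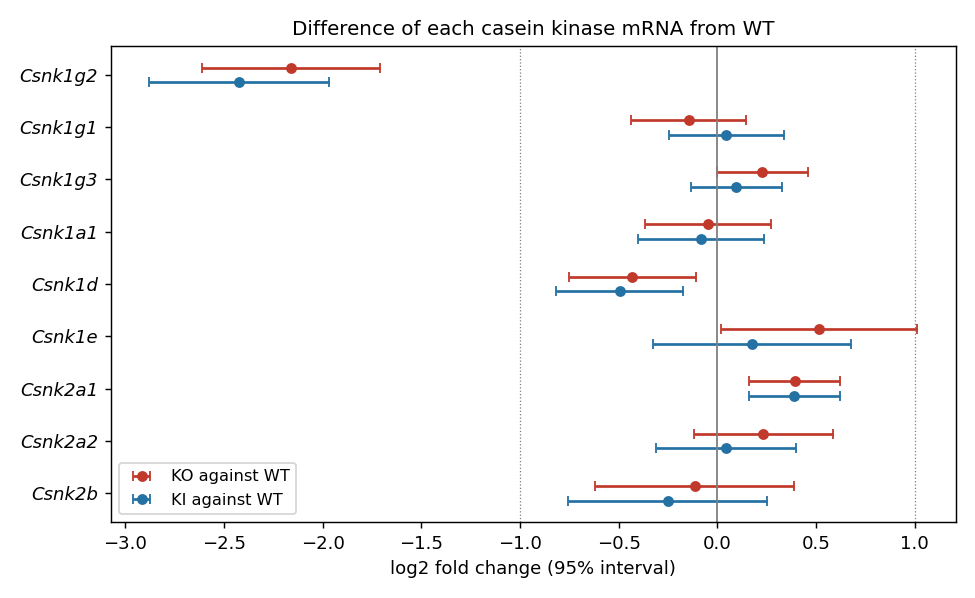
Log2 fold change of each casein kinase mRNA in KO (red) and KI (blue) against WT, from 1 model over 18 libraries, with 95% intervals as bars and dotted lines at 1 log2 unit. The intervals of Csnk1g2 lie below -1 in both, those of Csnk1d lie below 0 and those of Csnk2a1 above 0, and the remaining intervals include 0 except that of Csnk1e in KO.

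To ask whether Csnk1g2 differed from its relatives and not only from its own WT level, the log2 ratio of Csnk1g2 to each of the 8 paralogs was taken within a library, where library scaling cancels. The log2 ratio of Csnk1g2 to Csnk1g1 was 3.46 ± 0.26 in WT, 1.35 ± 0.73 in KO and 1.02 ± 0.53 in KI (mean ± SD, n = 6). That to Csnk1g3 was 6.28 ± 0.31 in WT, 3.81 ± 0.74 in KO and 3.76 ± 0.29 in KI. For all 8 paralogs, every WT ratio lay above every ratio of both mutants. The difference from WT ran from -1.80, to Csnk1d, to -2.77, to Csnk1e, in KO, and from -1.92, to Csnk1d, to -2.82, to Csnk2a1, in KI. Each of these 16 comparisons gave p = 0.002165 in an exact permutation test, two-sided, the smallest that 6 against 6 libraries allow, and an adjusted p of 0.003247 over the 24 ratios compared. All of them share the same Csnk1g2 values, so they are not independent of each other or of the fall of Csnk1g2 itself. Without the library labelled KI 4 all 8 ratios of KI were again called. With close libraries summed all 8 were called in each mutant, with adjusted p of at most 0.0857 (exact permutation), since fewer units allow fewer permutations.

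Between KI and KO the ratios overlapped for all 8 paralogs, and the exact permutation test gave p from 0.288 to 0.959, with 0 of 8 called after adjustment. Without KO 3, whose ratios were the lowest of the KO libraries for 7 of the 8, 4 were called, those to Csnk1a1, Csnk1d, Csnk1g1 and Csnk2a1, with differences of KI from KO of -0.26 to -0.60 log2 units (adjusted p from 0.0489 to 0.0727, exact permutation). Csnk2b was the paralog whose ratio to Csnk1g2 varied least among the KO libraries, with an SD of 0.14.

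**Figure D3:**
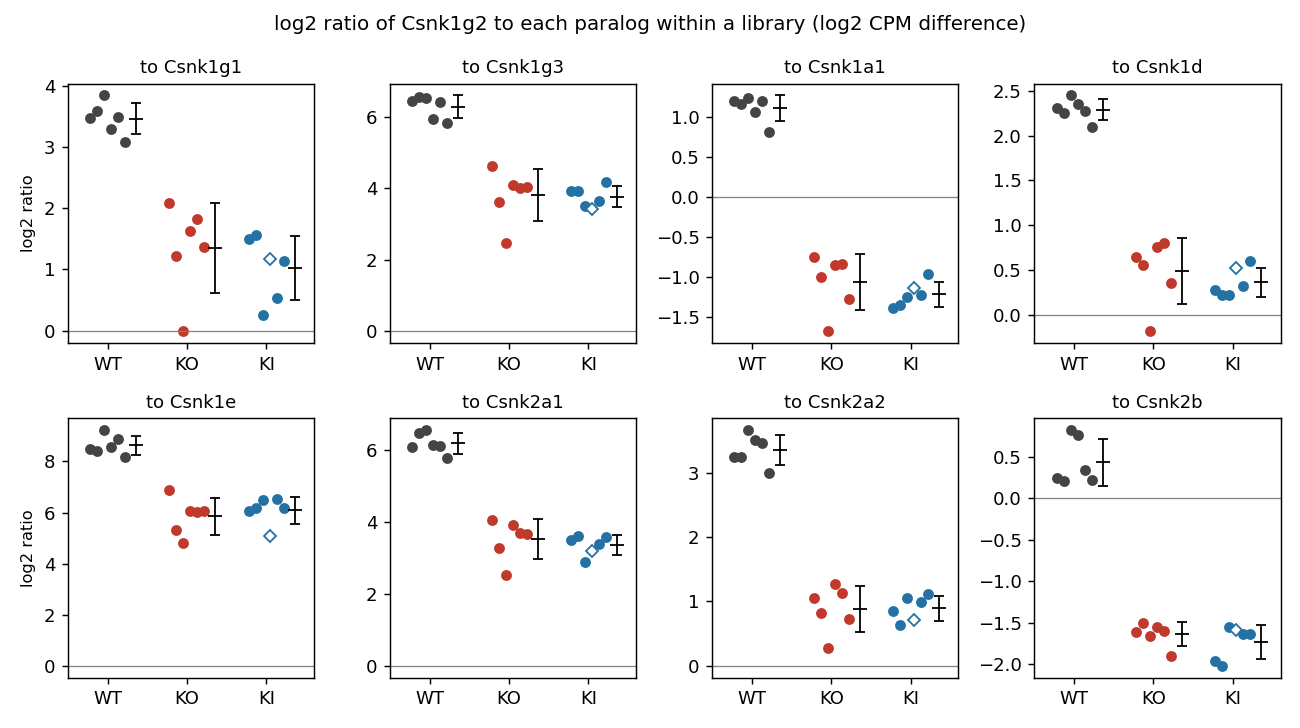
Log2 ratio of Csnk1g2 to each paralog within a library (difference of log2 CPM), by genotype, with 1 point per library, the library labelled KI 4 as an open diamond and the mean ± SD of 6 libraries in black. In all 8 panels the WT points lie above the KO and KI points.

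Per length of exon, Csnk1g2 ranked after Csnk2b alone in WT RS and lay among Csnk1a1 and Csnk1d in the mutants. In WT the order by CPM per kilobase was led by Csnk2b at 246 ± 61.0, followed by Csnk1g2 at 139 ± 19.1 (mean ± SD, n = 6). Csnk1a1 at 29.4 ± 2.13 and Csnk1d at 27.4 ± 3.43 came next and overlapped. Csnk2a2 at 6.90 ± 1.22, Csnk1g1 at 3.89 ± 0.366, Csnk1g3 at 1.94 ± 0.157, Csnk2a1 at 1.31 ± 0.166 and Csnk1e at 0.250 ± 0.061 followed without overlap. In KO Csnk1g2 kept rank 2, at 31.2 ± 11.8 CPM per kilobase, and overlapped with Csnk1a1 (28.5 ± 6.44), which in turn overlapped with Csnk1d (20.3 ± 5.07). In KI Csnk1g2 had rank 3, at 25.9 ± 4.13, between Csnk1a1 (27.8 ± 5.50) and Csnk1d (19.5 ± 3.51), with overlap on both sides. When the length of the longest coding transcript was used, Csnk1g2 had rank 2 in WT and rank 3 in KO and KI. On that length it no longer overlapped with Csnk1a1 in either mutant. In KI it stood at 53.4 ± 8.51 CPM per kilobase, well below Csnk1a1 at 157 ± 31.1. Nor did it overlap there with the next gene, Csnk1g1, at 30.25 ± 7.93. Its place among Csnk1a1 and Csnk1d therefore holds for exon length only.

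Csnk1g2 made up 95.9 ± 0.748% of the summed level per kilobase of the 3 gamma genes in WT, 82.4 ± 8.32% in KO and 80.7 ± 4.57% in KI. With the length of the longest coding transcript these shares were 89.5 ± 1.71%, 65.2 ± 11.8% and 60.8 ± 8.03%. Of all 6 casein kinase 1 genes it held 68.7 ± 2.16% in WT, 35.1 ± 5.90% in KO and 32.6 ± 2.26% in KI, and with the longest coding transcript 54.5 ± 2.76%, 21.9 ± 4.42% and 19.6 ± 1.64%. By mean level, Csnk1g2 thus remained the most abundant gamma transcript in both mutants with either length. Per exon length its share of the gamma genes was at least 66.2% in every KO library and 73.7% in every KI library. With the longest coding transcript it was below Csnk1g1 in KO 3, at 26.8 against 30.6 CPM per kilobase. Per exon length, the summed gamma level fell from 145 CPM per kilobase in WT to 36.9 in KO and 32.0 in KI, a description with no test of the sum.

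**Figure D4:**
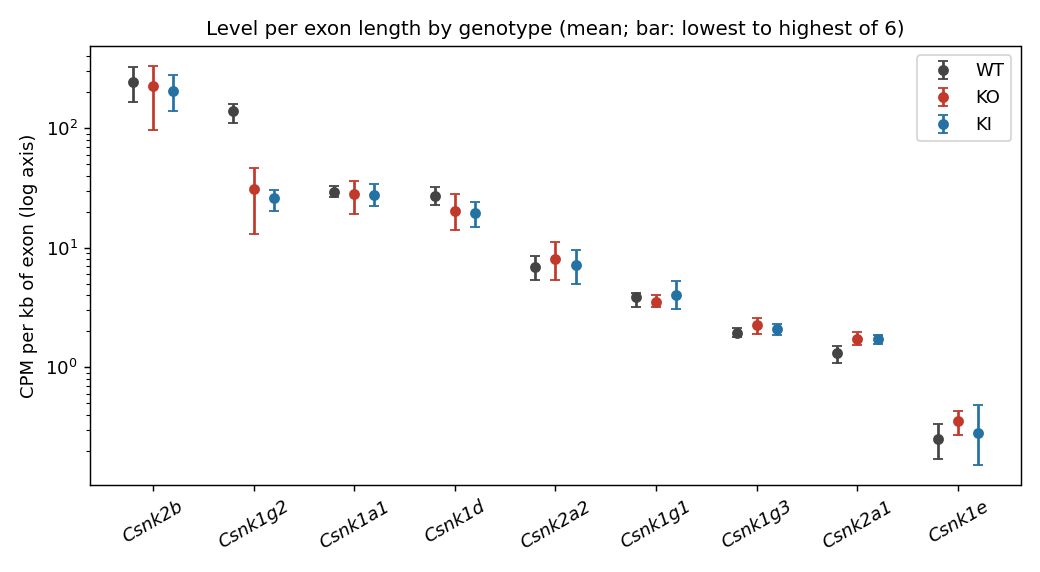
Level of each casein kinase mRNA in CPM per kilobase of exon on a log axis, ordered by the WT level. Points are means of 6 libraries and bars run from the lowest to the highest library. Csnk1g2 stands at 139 in WT, between Csnk2b at 246 and Csnk1a1 at 29.4, and reaches the level of Csnk1a1 and Csnk1d in KO and KI.

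The study considered Csnk1g2 together with the miRNAs miR-155-5p and miR-26a, so their mature sequences are shown here with the match in its mRNA. The paper names Csnk1g2 among the mRNAs regulated by miR-26a, from pairs found in TargetScan, TarBase and miRDB together. It also reports lower Csnk1g2 in RS of both KO and KI mice, measured by qRT-PCR. The capitals mark the seed (bases 2 to 8) in the miRNAs and its reverse complement in the mRNA. Levels of miRNAs were not analysed here.
mmu-miR-155-5p: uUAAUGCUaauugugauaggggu
Csnk1g2 site: ccttcgagAGCATTAactattta
mmu-miR-26a-5p: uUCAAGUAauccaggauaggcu
The miRNA sequences are from RefSeq and the site is from the GENCODE M21 transcripts, at chr10:80640246-80640268 of GRCm38, plus strand. The letters AGCATTA, searched on the mRNA strand, occurred 1 time in the 665-base 3′ UTR of Csnk1g2, at bases 178 to 184, followed by an A. Of 2549 genes with a 3′ UTR of like length (0.8 to 1.25 times), 4.24% held these letters. None of the annotated 3′ UTRs of the other 8 members did. The letters TACTTGA, the match of miR-26a-5p, did not occur in the 3′ UTR of Csnk1g2, where 4.04% of like UTRs held them. They occurred 2 times in that of Csnk2a2 (32.8% of 698 like UTRs held them), in 3 of 9 coding transcripts of Csnk1g1 and in 1 of 8 of Csnk1a1. Only the full match to bases 2 to 8 was searched, so shorter or other kinds of site were not looked for. Such matches are descriptions of sequence.

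The 5 genes whose level followed that of Csnk1g2 most closely over the 18 libraries were Reep6 (Pearson r = 0.999), Gapdhs (0.999), 2810408A11Rik (0.998), Clmn (0.997) and Ppm1a (0.996). Gapdhs encodes the glycolytic enzyme of the sperm tail, and Ppm1a a serine/threonine phosphatase. Reep6 averaged 844 ± 133 CPM in WT, 135 ± 58.2 CPM in KO and 111 ± 17.4 CPM in KI (n = 6). Gapdhs averaged 783 ± 94.4, 165 ± 72.0 and 132 ± 21.6 CPM in the same order. In Csnk1g2, WT lay apart from KO and KI, which overlapped, so r was also taken within each genotype of 6 libraries, where it ran from 0.883 to 0.9999 for these 5 genes. The libraries share their cell preparation and depth, and the values of r are given as a description. Close pairs leave 3 units for WT, 5 for KO and 4 for KI, so r within a genotype rests on fewer than 6 units. The KI units include the library labelled KI 4. These 5 genes were picked for their r over the same libraries, so a high r within a genotype can partly follow from that choice. Values of r without the library labelled KI 4 or with close libraries summed were not taken. Among the paralogs r with Csnk1g2 ran from -0.70 for Csnk2a1 to 0.84 for Csnk1d, which was rank 1190 of 21057 genes.

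The mRNAs listed for elongating spermatids were lower in both mutants, as Csnk1g2 was. The paper states that Prm2 and Tnp2 are already transcribed in RS and stored for later translation. Their mRNAs therefore do not mark elongating cells alone. All 6 markers of elongating spermatids, the chromatin proteins Prm1, Prm2, Tnp1 and Tnp2 with Oaz3 and Smcp, were lower past 1 log2 unit in KO and in KI, also without the library labelled KI 4. When close libraries were summed, all 6 were lower for a change of any amount and 4 past 1 log2 unit in each. Their median log2 fold change was -2.24 in KO and -2.41 in KI, and their summed level ran from 12400 to 17210 CPM in WT, from 1459 to 3428 CPM in KO and from 1835 to 2930 CPM in KI. No marker of the list was at 0. Within a genotype, r between Csnk1g2 and the log2 of this sum was 0.968 (WT), 0.805 (KO) and 0.507 (KI), with n = 6 libraries each. These r are descriptions, and close pairs leave 3, 5 and 4 units for them, the library labelled KI 4 included. The 6 markers of Leydig cells, the steroid-producing cells between the tubules, were higher for a change of any amount in both mutants. Their summed level was 9.76 to 19.7 CPM in WT, 29.9 to 52.0 CPM in KO and 13.4 to 66.1 CPM in KI, and without the library labelled KI 4 the 5 markers tested were called in each. All 6 were called when close libraries were summed. Past 1 log2 unit 0 Leydig genes were called. The other lists also had 0 genes past 1 log2 unit, but some were called for a change of any amount. Over all genes, 16.4% were higher and 13.5% lower in KO, and 16.1% and 15.4% in KI. Past 1 log2 unit, 1.13% of all genes were lower in KO and 1.43% in KI. Of 8 spermatocyte markers 3 were higher and 1 lower in each mutant, with 2 and 1 in KI without the library labelled KI 4. Of 7 spermatogonium markers 2 were higher in KO and 1 in KI, and without that library 3 in KO and 0 in KI. Of 5 macrophage markers 2 were higher in KO and 3 in KI (2 without it), and of 4 endothelial markers 1 was higher in each. Of 6 Sertoli markers tested, 1 was lower in each. Of 3 peritubular myoid markers tested, 1 was higher and 1 lower in KO and 1 lower in KI. Of 2 erythrocyte markers tested, 1 was lower in KO, and 1 was higher and 1 lower in KI (0 and 1 without the library labelled KI 4). Summing close libraries left 2 spermatocyte markers higher in KO and 1 in KI, and 1 spermatogonium marker in KO and 0 in KI. It left 1 macrophage marker higher in KO and 2 in KI, 1 endothelial marker higher in each, and 0 Sertoli markers called. Of the myoid markers 1 was then higher and 1 lower in KO and 1 lower in KI, and 1 erythrocyte marker was lower in each. The part of these cells in the level of Csnk1g2 was not tested.

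Genes around the casein kinases were read from 7 lists with 64 genes, of which 60 were tested. In KO 19 were higher and 3 lower for a change of any amount, beside 16.4% of all genes higher and 13.5% lower. In KI 18 were higher and 4 lower, beside 16.1% and 15.4%, and without the library labelled KI 4 15 were higher and 4 lower. Summing close libraries left 7 higher and 2 lower in KO and 7 higher and 3 lower in KI. In that fit 3655 of 23062 genes were called in either direction in KO and 3402 in KI. Past 1 log2 unit 1 was lower in each mutant. The median log2 fold change of these genes was 0.16 in KO and 0.16 in KI, against 0.03 and 0.05 for all genes. The gene past 1 log2 unit was Mlkl, the executioner of necroptosis that acts after RIPK3. Mlkl ran from 5.72 to 13.5 CPM in WT, from 0.712 to 2.52 CPM in KO and from 1.31 to 2.79 CPM in KI, so that all mutant libraries lay below WT. Its log2 fold change was -2.24 in KO (adjusted p = 0.003089) and -1.98 in KI (adjusted p = 0.0204), and -1.97 in KI without the library labelled KI 4 (adjusted p = 0.0409). With close libraries summed the call past 1 log2 unit held in KO (adjusted p = 0.0211) and not in KI (-1.93, adjusted p = 0.238), where Mlkl was still called for a change of any amount (adjusted p = 0.0005446).

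Of the 6 tested genes of the necroptosis list, 2 were higher and 1 lower in KO, and 3 higher and 1 lower in KI. Over all genes, 16.4% were higher and 13.5% lower in KO, and 16.1% and 15.4% in KI. Ripk1, the kinase upstream of RIPK3, and Fadd, an adaptor of the death receptors, were higher in both. Their log2 fold changes were 0.30 (adjusted p = 0.0580) and 0.58 (0.0504) in KO, and 0.50 (0.00208) and 0.65 (0.0281) in KI. Zbp1, a sensor of nucleic acids, was called in KI only, at 0.86 (adjusted p = 0.0521), with 0.50 in KO (adjusted p = 0.301), and the difference between the mutants was not called. Without the library labelled KI 4 all 3 were again called in KI, and with close libraries summed Ripk1 in KI (adjusted p = 0.0797) was the one call left among these 3. Ripk3 itself, the partner of Csnk1g2, was at 1.78 ± 0.492 CPM in WT and had a log2 fold change of 0.39 in KO (adjusted p = 0.204) and 0.44 in KI (0.133).

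The Wnt list had 5 of 13 genes higher in KO and 4 in KI (3 without the library labelled KI 4), and 0 lower. Beside these lists, 16.4% of all genes were higher in KO and 16.1% in KI. Axin1 and Dvl2, a scaffold of the beta-catenin destruction complex and a Dishevelled protein, were higher in both, with log2 fold changes of 0.40 and 0.39 in KO (adjusted p = 0.0113 and 0.0203). The circadian list had 3 of 8 higher in each (2 in KI without the library labelled KI 4). Cry2, a clock repressor, was called in both, with log2 fold changes of 0.32 in KO (adjusted p = 0.0898) and 0.56 in KI (adjusted p = 0.003101). Without the library labelled KI 4 all 3 genes were again called in KI. After close libraries were summed, the Wnt list had 1 gene higher in KO, Axin1 (adjusted p = 0.0948), and 0 in KI, and the circadian list had 0 in KO and 1 in KI, Cry2 (0.0482). The genes of these lists that are named beside Mlkl were chosen after their values were seen.

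Among the anchors and the activator of casein kinase 1, 3 of 6 tested genes were higher in KO, and 3 were higher and 1 lower in KI, 2 and 1 without the library labelled KI 4. The shares over all genes were 16.4% higher and 13.5% lower in KO, and 16.1% and 15.4% in KI. Ddx3x, an RNA helicase like GRTH and an activator of casein kinase 1 in Wnt signalling, rose from 7.20 ± 1.42 CPM in WT to 17.3 ± 4.33 CPM in KO and 15.5 ± 4.17 CPM in KI, a log2 fold change of 1.26 (adjusted p = 3.373e-05) and 1.10 (adjusted p = 0.000133). Fam83d, which anchors Csnk1a1 at the mitotic spindle, rose by 1.09 and 0.99 log2 units. Without the library labelled KI 4 they were at 0.95 and 0.89 in KI and were called, as they were in both mutants with close libraries summed. Neither was past 1 log2 unit by the test. Of the 5 other kinases of the casein kinase 1 group, Ttbk1, a tau-tubulin kinase, was lower, with log2 fold changes of -0.76 in KO (adjusted p = 0.0156) and -0.97 in KI (0.00249), and the other 4 lay between -0.18 and 0.18 and were not called. Ttbk1 was at -0.88 in KI without the library labelled KI 4 (adjusted p = 0.007468), and with close libraries summed it was called in KI (0.0622) and not in KO (0.139). These genes too were chosen after their values were seen.

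Among the partners and clients of casein kinase 2, 4 of 12 were higher and 1 lower in each mutant, and with close libraries summed 2 higher and 1 lower. The lower one was Csnka2ip, which encodes a testis protein that binds the Csnk2a2 chain. Csnka2ip held 3393 to 7523 counts in the WT libraries, 441 to 3479 in KO and 1299 to 2646 in KI, and its groups overlapped between WT and KO. The log2 fold change was -1.14 in KO (adjusted p = 0.0175) and -1.38 in KI (adjusted p = 0.00446), and -1.29 in KI without the library labelled KI 4 (adjusted p = 0.0124). It was called in both with close libraries summed (adjusted p = 0.0982 in KO and 0.0830 in KI). It was not past 1 log2 unit by the test. Of 10 genes of acrosome formation, the process disturbed when Csnk2a2 is lost, 2 were higher in KO and 1 in KI and 0 were lower. For both lists, the shares over all genes were 16.4% higher and 13.5% lower in KO, and 16.1% and 15.4% in KI.

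**Figure D5:**
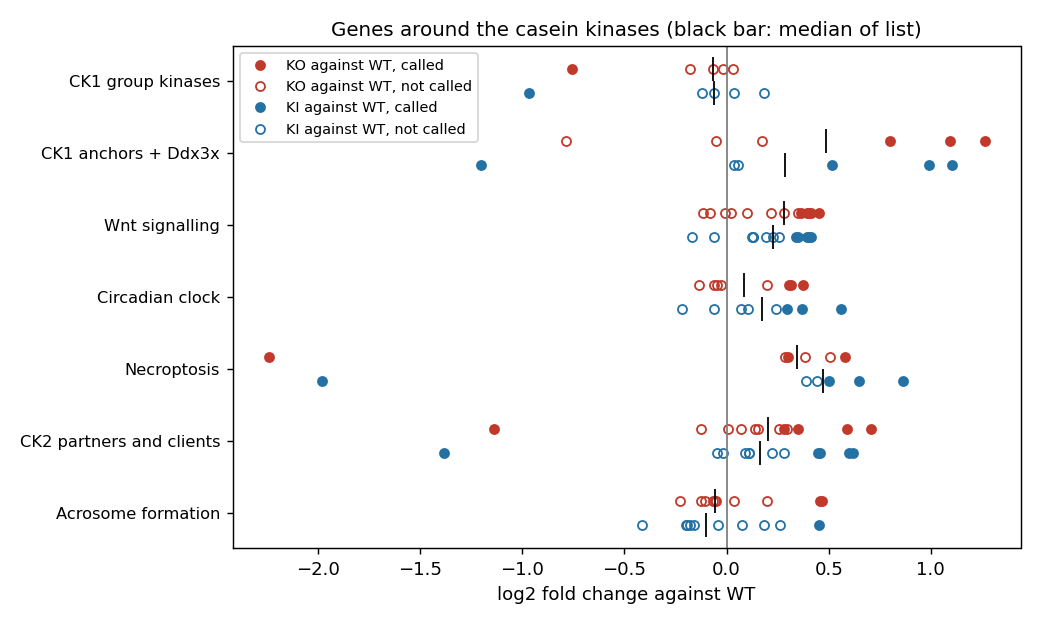
Log2 fold change against WT of each tested gene in 7 lists of genes around the casein kinases, with KO in red and KI in blue. Filled points were called for a change of any amount, open points were not, and black bars are medians of a list. Mlkl in the necroptosis list stands at -2.24 and -1.98, and Csnka2ip among the partners of casein kinase 2 at -1.14 and -1.38.

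Around Csnk1g2 on chromosome 10, 16 annotated genes lay within 100000 bases, and 12 of them were tested. In KO 3 were higher and 1 lower for a change of any amount, beside 16.4% of all genes higher and 13.5% lower. In KI 4 were higher and 1 lower, beside 16.1% and 15.4%, and 3 and 1 without the library labelled KI 4. The median log2 fold change was 0.13 in KO and 0.11 in KI. The lower one was Rexo1, 61278 bases away, with mean levels of 183 CPM in WT, 54.4 CPM in KO and 48.0 CPM in KI. Its log2 fold change was -1.75 in KO (adjusted p = 0.002619) and -1.93 in KI (adjusted p = 0.0002015), past 1 log2 unit in both, also without the library labelled KI 4 (adjusted p = 0.0006934) and with close libraries summed (0.0350 in KO and 0.0273 in KI). The nearest gene, Btbd2, 1868 bases from the end of Csnk1g2 on the other strand, was higher, at 0.60 log2 units in KO (adjusted p = 0.006198) and 0.47 in KI (adjusted p = 0.0253). Mknk2 and Mob3a, on the same side, were also higher in both, by 0.54 and 0.82 log2 units in KO. These 3 genes were called in KI without the library labelled KI 4 and, with close libraries summed, in both mutants except Btbd2 in KI (adjusted p = 0.140). No other tested gene of this window was called lower.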

How the data were processed

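The deposited table holds raw counts per gene for 18 libraries. Per the labels and the study's methods, the authors used cutadapt 3.4 for trimming, STAR 2.7.8a for alignment to GRCm38, and counted uniquely assigned pairs by strand on GENCODE M18 with featureCounts (Subread 2.0.1), without removing duplicates. Here genes were filtered with filterByExpr (21058 kept), scaled with TMM factors and fitted in edgeR 4.0.16 (R 4.3.3) with 1 quasi-likelihood model of genotype. Any change was tested with glmQLFTest and a change past 1 log2 unit with glmTreat, at a Benjamini-Hochberg adjusted p under 0.1 over all genes. On simulated counts of 20242 genes for KO against WT, glmQLFTest recovered 9.8% of changes of 0.5 log2 units and 97.2% of changes of 2, and glmTreat 0% and 72.2%. Few genes were changed in these counts and each library was drawn separately, while 6297 of 21058 genes were called in KO in the data. The recovery therefore does not measure the power of the tests here. Ratios used log2 CPM with a prior count of 2 and exact permutation tests (scipy 1.17.1). Positions and exon lengths of the members came from the deposited table (GENCODE M18), and transcripts, 3′ UTRs and neighbouring genes from GENCODE M21 on the same build. The members and lists were chosen with earlier results of these data known. Genes named are the 9 members, list genes past 1 log2 unit, the 5 with the highest r with Csnk1g2, genes within 100000 bases of it, other genes named Csnk, and Ddx25. Further list genes and the neighbours singled out were chosen after their values were seen. DESeq2 1.42.0 was an alternative. One listed gene is not reported here by name.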

Additional observations from a re-analysis of the deposited data

How the results depend on the processing

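Csnk1g2 stayed past 1 log2 unit in both mutants under all 27 alternatives, with log2 fold changes of -2.31 to -2.001 in KO and -2.48 to -2.32 in KI, and leaving out 1 library gave -2.31 to -2.001 and -2.48 to -2.34. The highest adjusted p was 0.0343 in KO and 0.0668 in KI, both with close libraries summed and the library labelled KI 4 left out, an alternative chosen after seeing the data. With close libraries summed, 1 member was called for a change of any amount in KO and 1 in KI in place of 3, with or without the library labelled KI 4, and fewer units were then fitted. Calls over all genes fell as well, from 6297 of 21058 to 3655 of 23062 in KO and from 6644 to 3402 in KI. Leaving out 1 library gave 2 to 4 members in KO and 3 in KI, and 1 past 1 log2 unit in each. Between KI and KO 0 members were called under all alternatives, and 0 to 4 of the ratios to Csnk1g2 when 1 library was left out. The rank of Csnk1g2 per kilobase in KO was 3 with the length of the longest coding transcript and 2 with exon length. Leaving out 1 library turned the direction of values that were not called: it gave -0.13 to 0.044 for Csnk1a1 and -0.26 to 0.043 for Csnk2b in KO, and -0.042 to 0.30 for Csnk1e, -0.052 to 0.11 for Csnk1g1 and -0.057 to 0.13 for Csnk2a2 in KI. Same-numbered libraries did not deviate together, with correlations of -0.44 to 0.48 over the 18 pairs, so the numbers are only shared. With the replicate number as a block, Csnk1g2 was at -2.23 in KO and -2.44 in KI, and Csnk1e in KO was called (adjusted p = 0.0987), so 4 members were called in KO and 3 in KI. The 18 libraries and the 21 to 75 counts of Csnk1e limit what could be called for the smaller differences. How often changes of 0.5 log2 units would be called in these data was not measured, since few genes were changed in the simulated counts.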
